A study of Homo sapiens with 9 samples.

Results

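MYC, its partner MAX and the MXD family form a network of transcription factors, and their RNA was examined in MIA PaCa-2 cells, an established line of pancreatic cancer cells. The members were the 10 genes named MYC, MYCN, MYCL, MAX, MXD1, MXD3, MXD4, MXI1, MNT and MGA, out of 58735 genes in the count table. They comprise 3 activators (MYC, MYCN and MYCL), 1 shared partner (MAX) and 6 antagonists (MXD1, MXD3, MXD4, MXI1, MNT and MGA). Wild-type cells of this single line, as the labels give the genotype, received SCH772984, an ERK inhibitor, at 1 μM, or compound 1, an inhibitor of TBK1 and IKKε, at 1 μM, or 0.1% DMSO as the vehicle. Each condition lasted 24 h and was represented by 3 libraries, 9 in all. The comparisons ask how each inhibitor affected the RNA of the network, and whether the inhibitors differed from each other.

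MYC binds DNA only after pairing with MAX, and the MYC:MAX dimer recruits coactivators to E-boxes near genes for ribosome production, nucleotide synthesis and the cell cycle. MXD1, MXI1, MXD3, MXD4 and MNT also pair with MAX, occupy the same E-boxes and bring in SIN3 corepressors, and MGA pairs with MAX within a polycomb complex. MXD family genes are known for rising as cells leave the cell cycle and differentiate. In pancreatic cancer cells, ERK signaling is known to sustain MYC at the levels of transcription and protein stability.

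Library totals were 9464432 to 13887859 counts. Mitochondrially encoded genes took 3.33% to 3.98% of counts in the DMSO libraries, 3.41% to 3.92% with compound 1 and 6.23% to 7.52% with SCH772984. With those genes left out, an alternative added after the data were seen, MYC still fell by 1.56 and MXD4 differed by 1.96 on the log2 scale with SCH772984. Compound 1 replicate 1 stood apart from its group: its chi-square per degree of freedom against the other two libraries was 10.1 and 7.61, whereas the value between replicates 2 and 3 was 2.66. Of 6 markers of epithelial and pancreatic carcinoma cells, 5 exceeded 1 CPM (the usual depth-scaled count) in every group, among them KRT8, KRT18 and VIM, while EPCAM had no count in any library. The summed level of this list was 6049 to 6426 CPM with DMSO, 5604 to 6675 CPM with compound 1 and 3206 to 3556 CPM with SCH772984. KRT8 averaged 2510 CPM with DMSO and 765 CPM with SCH772984 and KRT18 887 and 165 CPM, while KRT19 averaged 254 and 270 CPM. The 5 fibroblast markers summed to 461 to 510 CPM with DMSO, 472 to 526 CPM with compound 1 and 989 to 1111 CPM with SCH772984, nearly all of it COL1A2, and DCN, LUM and PDGFRA averaged at most 0.175 CPM in any group. The leukocyte markers summed to at most 3.09 CPM and the endothelial markers to at most 6.71 CPM in any library, and the 3 acinar markers were at 0. The part of these shifts in the results was not tested. All 11 tested ERK output genes were lower with SCH772984 (DUSP6, SPRY4 and ETV5 among them), where 35.5% of all tested genes were called lower. A stricter filter, dropping any gene under 10 counts in a library, left 7 ERK output genes called lower, where 4295 of 11970 genes were. Genes that are low with SCH772984 can pass the main filter through their DMSO counts alone. How many of the 11 did so was not tested. With compound 1, 0 of 11 were called by edgeR, where 0.49% of all tested genes were called higher and 0.374% lower, and at an unadjusted p under 0.05, 1 of the 11 was above DMSO and 2 were below, where 7.35% and 7.69% of all genes were.

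Start sites of the members were taken from a table of RefSeq promoters (GRCh38.p14), in which 9 of the 10 members were matched, with 14 promoters in all. The MYC promoter was not analysed here. The 250 bases before each start were searched on both strands for CACGTG (the E-box that MYC:MAX and MXD:MAX dimers bind), CCGGAAG (ETS factors), TTTGGCGC and TTTCGCGC (E2F), GTAAACA (forkhead factors) and TGACGTCA (CREB). The promoters of the 4 antagonists whose RNA was higher with SCH772984 are shown 5′ to 3′, without the bases that a GENCODE exon covers, because those genes share a response and differ in whether an E-box is present. Capitals mark the E-box. The windows are chr4:2262295-2262359 (minus strand) for MXD4, chr17:2401119-2401310 (minus strand) for MNT, chr5:177312758-177313002 (minus strand) for MXD3 and chr2:69914859-69915040 (plus strand) for MXD1.
MXD4: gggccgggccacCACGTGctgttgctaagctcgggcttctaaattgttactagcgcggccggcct
MNT: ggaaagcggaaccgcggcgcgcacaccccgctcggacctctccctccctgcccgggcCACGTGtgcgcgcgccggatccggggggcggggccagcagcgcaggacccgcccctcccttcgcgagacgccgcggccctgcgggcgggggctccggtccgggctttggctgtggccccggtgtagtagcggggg
MXD3: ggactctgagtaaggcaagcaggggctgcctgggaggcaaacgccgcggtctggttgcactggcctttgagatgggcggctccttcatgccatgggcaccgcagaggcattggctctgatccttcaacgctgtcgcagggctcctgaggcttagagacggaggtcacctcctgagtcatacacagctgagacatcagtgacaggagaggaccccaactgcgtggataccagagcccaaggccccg
MXD1: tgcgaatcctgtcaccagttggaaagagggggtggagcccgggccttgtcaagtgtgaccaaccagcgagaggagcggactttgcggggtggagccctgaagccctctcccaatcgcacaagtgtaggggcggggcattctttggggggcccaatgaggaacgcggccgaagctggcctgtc

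The E-box lay 238 to 233 bases before the MXD4 start and 193 to 188 bases before the MNT start. MXD1 and MXD3 had no CACGTG and none of the other searched motifs in their 250 bases. An E-box was present in 6.34% of 35116 promoters of the same length in the table. Among the remaining members, an ETS motif was found in 1 MAX promoter, a forkhead motif in 1 MXI1 promoter and an E2F motif in 1 MGA promoter. MYCN held both E2F motifs, which shared bases, with the first 176 to 169 bases and the second 172 to 165 bases before its start. The shares of all promoters were 8.52% for CCGGAAG, 0.55% for TTTGGCGC, 0.439% for TTTCGCGC, 2.98% for GTAAACA and 1.65% for TGACGTCA. The matches describe letters in these windows and were not tested for binding.

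Levels between genes are given as RPKM, the CPM divided by the kilobases of the gene model in the table. In DMSO the order of mean levels was MYC (104 ± 1.70 RPKM, SD, n = 3), MAX (10.4 ± 0.719), MXD4 (8.60 ± 0.203), MXD3 (3.82 ± 0.287), MGA (3.02 ± 0.218), MXI1 (1.78 ± 0.194), MNT (1.33 ± 0.0547), MXD1 (0.970 ± 0.0517), MYCL (0.554 ± 0.206) and MYCN, which had no count. No pair of neighbours in that order overlapped over the 3 DMSO libraries. With SCH772984 the order was MYC (34.6 ± 1.599), MXD4 (32.8 ± 2.61), MXD3 (9.79 ± 3.28), MAX (8.24 ± 0.413), MGA (2.70 ± 0.220), MNT (2.31 ± 0.225), MXD1 (2.21 ± 0.239), MXI1 (1.87 ± 0.0651) and MYCL (0.467 ± 0.0501). Here MYC and MXD4 overlapped, as did MXD3 and MAX, MGA and MNT, and MNT and MXD1. With compound 1 the order was that of DMSO, and MGA and MXI1, and MNT and MXD1, overlapped.

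The order depends in part on the length used. With the longest coding transcript of each gene in place of the whole gene model, a choice added after the data were seen, MXD4 (57.1 ± 4.54 RPKM) stood above MYC (43.9 ± 2.03 RPKM) under SCH772984. In DMSO the same change placed MXD4 (14.96 ± 0.352) beside MAX (14.5 ± 1.01), within the spread of MAX. On the gene models, 2.39% of 16028 protein-coding genes with a count had a higher mean RPKM than MYC in DMSO, and 6.62% had a higher one with SCH772984. For MXD4 the corresponding values were 29.6% and 7.04%.

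**Figure D1:**
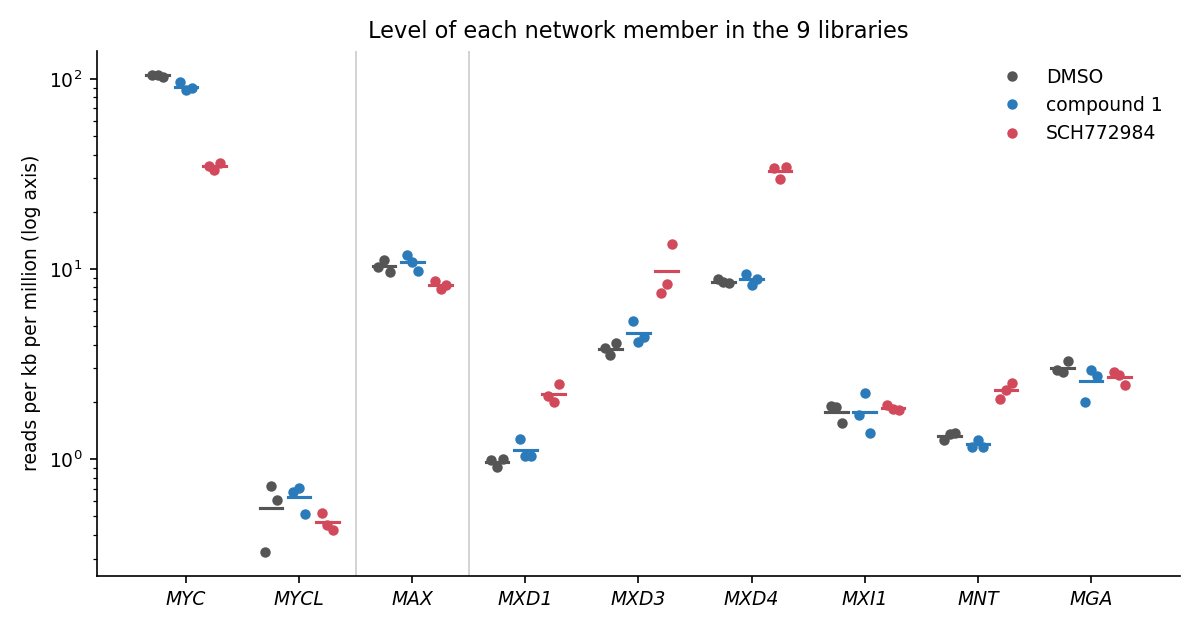
Level of 9 network members in each library, in RPKM on a log axis, with points for libraries, bars for group means and colors for DMSO, compound 1 and SCH772984. MYC lies near 100 with DMSO and near 35 with SCH772984, MXD4 rises from about 8.6 to about 33, and MYCN, without a count, cannot be drawn on this axis.

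MYC encodes the activator that most proliferating cells use (chromosome 8, plus strand). It had 3060, 2839 and 2781 counts in the DMSO libraries, 2729, 2488 and 2588 with compound 1, and 1261, 1212 and 1611 with SCH772984. Per length these are 105, 105 and 102 RPKM with DMSO, 96.8, 87.1 and 89.5 RPKM with compound 1, and 34.8, 33.0 and 36.2 RPKM with SCH772984. The SCH772984 libraries all lay far below both other groups, and all 3 compound 1 libraries also lay below all 3 DMSO libraries. With SCH772984, MYC was 2.97-fold lower than with DMSO (log2 fold change -1.57, SE 0.063, edgeR quasi-likelihood adjusted p = 1.08e-25). Of 13834 genes tested in this comparison, 3.87% had a smaller log2 fold change. In these bulk samples, fewer cells with a transcript and less of it per cell cannot be told apart.

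MYCL, a paralog known from lung cancer, was near the lower end of what the libraries could measure, with 16, 33 and 28 counts with DMSO, 32, 34 and 25 with compound 1, and 32, 28 and 32 with SCH772984. The groups overlapped, and the SCH772984 difference was -0.22 on the log2 scale (95% interval -0.82 to 0.38, adjusted p = 0.526). MYCN, the paralog of neural tumors, had 0 of 94774249 counts over the 9 libraries, which allows a level of up to 0.0317 CPM by counting error alone. It was therefore not tested. MYC supplied 98.5% to 99.7% of the summed activator RPKM in every library, and no paralog was called with SCH772984.

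MAX (chromosome 14, 65006174 to 65102695, minus strand) encodes the common dimer partner through which activators and antagonists bind E-boxes. It had 442, 442 and 388 counts with DMSO, 496, 460 and 419 with compound 1, and 464, 425 and 540 with SCH772984. Its level was 10.3, 11.1 and 9.67 RPKM with DMSO, 11.9, 10.9 and 9.82 RPKM with compound 1, and 8.66, 7.84 and 8.22 RPKM with SCH772984. The SCH772984 libraries lay below the DMSO libraries without overlap, by a small margin. MAX was 1.24-fold lower (log2 fold change -0.31, SE 0.087, adjusted p = 0.00168), but with scaling by library size alone the difference was -0.13 with an adjusted p of 0.158. That scaling moved the median log2 fold change of all tested genes from 0.03 to 0.20, and relative to this shift MAX remained below the median gene. An antisense transcript within MAX (AL139022.1) shares 4.15% of its exon bases and had at most 5 counts.

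MXD4 (chromosome 4, 2247432 to 2262294, minus strand) encodes a MAX-binding repressor whose promoter holds the E-box printed above. It had 603, 543 and 538 counts with DMSO, 625, 553 and 604 with compound 1, and 2898, 2575 and 3624 with SCH772984. The level was 8.81, 8.56 and 8.41 RPKM with DMSO, 9.43, 8.23 and 8.88 RPKM with compound 1, and 34.0, 29.8 and 34.6 RPKM with SCH772984. The DMSO and compound 1 libraries shared a range, and every SCH772984 library was far above it. MXD4 was 3.87-fold higher with SCH772984 (log2 fold change 1.95, SE 0.070, adjusted p = 1.61e-27), the largest change of the 9 tested members in either direction. Of all tested genes, 6.75% had a larger log2 fold change.

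MXD3 (chromosome 5, 177301461 to 177312757, minus strand), a family member usually linked to S phase rather than to cell cycle exit, had 192, 163 and 191 counts with DMSO, 257, 202 and 219 with compound 1, and 467, 526 and 1036 with SCH772984. Its level was 3.84, 3.52 and 4.09 RPKM with DMSO, 5.31, 4.12 and 4.41 RPKM with compound 1, and 7.49, 8.34 and 13.5 RPKM with SCH772984. All SCH772984 libraries were above the rest, and replicate 3 was well above the other two. MXD3 was 2.61-fold higher (log2 fold change 1.39, SE 0.28, adjusted p = 0.00824), and without that library the difference was 1.08 (adjusted p = 3.94e-16). MXD3 shares exon bases with neighbours: 926 bases (18% of its exons) with RAB24 on the same strand and 1158 bases (22.5%) with PRELID1 on the opposite strand. RAB24 was also higher with SCH772984 (log2 fold change 1.08) and PRELID1 was lower (-1.09). Reads over the bases shared with RAB24 cannot be told apart by strand. Because the strand setting of the counting is not given in the sources used here, those shared with PRELID1 cannot be assigned with certainty either. The MXD3 values are uncertain to that extent.

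MXD1 (chromosome 2, 69897688 to 69942945, plus strand), the founding antagonist of the family, had 61, 52 and 58 counts with DMSO, 76, 63 and 64 with compound 1, and 165, 156 and 233 with SCH772984. The level was 0.991, 0.911 and 1.01 RPKM with DMSO, 1.27, 1.04 and 1.05 RPKM with compound 1, and 2.15, 2.01 and 2.47 RPKM with SCH772984. The SCH772984 libraries were all above the others. The difference was 2.31-fold (log2 fold change 1.21, SE 0.16, adjusted p = 6.98e-09). Its gene model starts upstream of the RefSeq start at 69915109 and shares 237 exon bases (3.73%) with SNRNP27 on the same strand, a splicing gene that was lower with SCH772984 (log2 fold change -0.69).

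MNT (chromosome 17, 2384060 to 2401118, minus strand) encodes the broadly expressed antagonist, often called the constant counterweight to MYC. It had 107, 106 and 108 counts with DMSO, 95, 105 and 98 with compound 1, and 219, 248 and 327 with SCH772984. Its level was 1.27, 1.35 and 1.37 RPKM with DMSO, 1.16, 1.26 and 1.17 RPKM with compound 1, and 2.08, 2.32 and 2.53 RPKM with SCH772984. Again the SCH772984 libraries did not overlap the others. MNT was 1.77-fold higher (log2 fold change 0.82, SE 0.13, adjusted p = 5.34e-07). The antisense gene AC006435.1 covers 12.2% of its exon bases and had no count in any library.

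The other antagonists were not called. MXI1 (chromosome 10, 110207605 to 110287365, plus strand), also known as MXD2, had 85, 78 and 65 counts with DMSO and 108, 104 and 124 with SCH772984. Per length this was 1.90, 1.88 and 1.56 RPKM against 1.94, 1.84 and 1.81 RPKM, so the groups overlapped, and the log2 difference was 0.08 (95% interval -0.25 to 0.42, adjusted p = 0.662). MGA (chromosome 15, 41621224 to 41773081, plus strand), a large scaffold protein with both a MAX-pairing domain and a T-box, had 502, 454 and 523 counts with DMSO and 614, 597 and 642 with SCH772984. Its level was 2.93, 2.86 and 3.27 RPKM with DMSO and 2.88, 2.76 and 2.45 RPKM with SCH772984, again with overlap. The MGA difference was -0.14 (95% interval -0.31 to 0.02, adjusted p = 0.125). With scaling by library size alone it was 0.03, a scaling that moved the median of all tested genes from 0.03 to 0.20.

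By role, 4 of 6 antagonists were higher and 0 lower with SCH772984, the partner was lower, and 1 of the 2 tested activators was lower. Over all genes tested, 37.2% were called higher and 35.5% lower with SCH772984, so a call in itself was common in this comparison. The median log2 fold change was 1.02 for the 6 antagonists, against 0.03 for all tested genes. At a threshold that also asks for a change of at least 2-fold, MXD1, MXD3 and MXD4 were higher and MYC was lower.

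**Figure D2:**
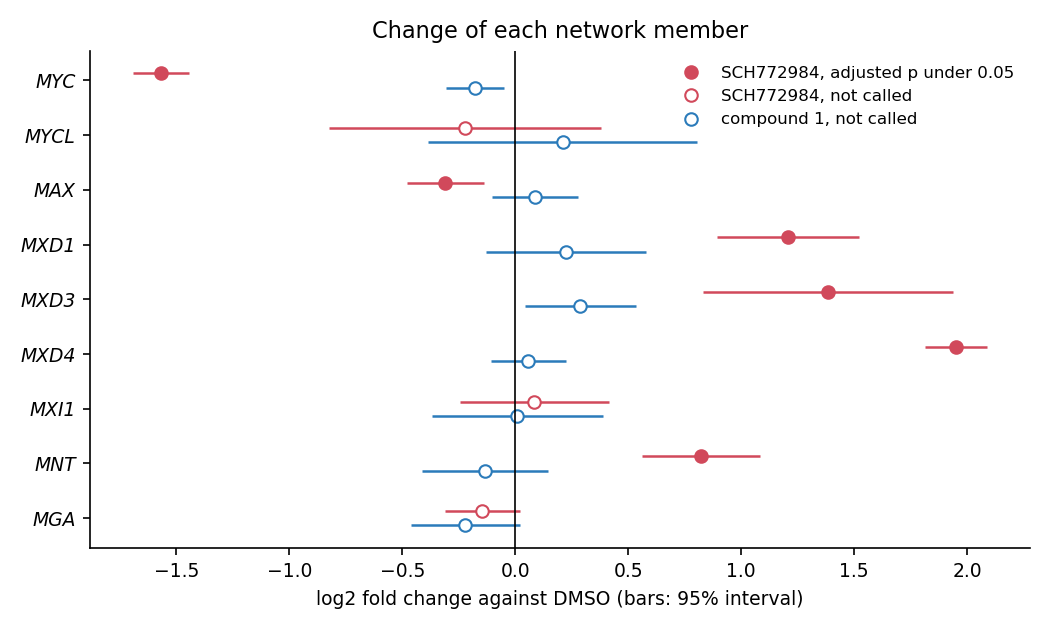
Log2 fold change of each tested member against DMSO, for SCH772984 and compound 1, with bars for the 95% interval and filled points for an adjusted p under 0.05. With SCH772984, MYC lies at -1.57 and MXD4 at 1.95, while every compound 1 point lies within 0.29 of zero.

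To describe the balance within the network, the RPKM of the 3 activators was divided by that of the 6 antagonists in each library. The ratio was 5.34, 5.55 and 5.22 with DMSO (mean 5.37 ± 0.168, SD, n = 3), 4.67, 4.42 and 4.59 with compound 1 (4.56 ± 0.125), and 0.699, 0.710 and 0.638 with SCH772984 (0.682 ± 0.0391). Activator transcripts exceeded antagonist transcripts in every DMSO and compound 1 library and were fewer than antagonist transcripts in every SCH772984 library. The compound 1 ratios were all below the DMSO ratios. The ratio describes RNA only, and since the members were chosen with results known, no test was applied to it.

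Both sides of the ratio moved with SCH772984. The activator sum was 103 to 106 RPKM with DMSO and 33.4 to 36.6 RPKM with SCH772984. The antagonist sum was 19.1 to 19.8 RPKM with DMSO, 19.6 to 20.9 RPKM with compound 1 and 47.1 to 57.4 RPKM with SCH772984. MXD4 made up 42.7% to 44.8% of the antagonist sum with DMSO and 60.3% to 67.3% with SCH772984, and MXD4 and MXD3 together reached 81.0% to 83.9% there. MGA made up 14.9% to 16.6% of the antagonist sum with DMSO and 4.27% to 5.87% with SCH772984, although its own level overlapped between these groups. The ratio of MYC to MXD4 alone went from 11.9 to 12.3 with DMSO to 1.02 to 1.11 with SCH772984.

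The sum of all MAX-binding members divided by MAX itself was 11.3 to 12.7 with DMSO, 9.87 to 11.2 with compound 1 and 9.90 to 11.4 with SCH772984. The DMSO and SCH772984 ranges overlapped, and the 3 compound 1 values lay below the 3 DMSO values. No test was applied to this ratio either. The values depend on the length scale, and the direction of the activator to antagonist ratio did not: the mean was 1.98 with DMSO and 0.286 with SCH772984 for CPM not divided by length, and 4.02 and 0.490 with coding transcript lengths.

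**Figure D3:**
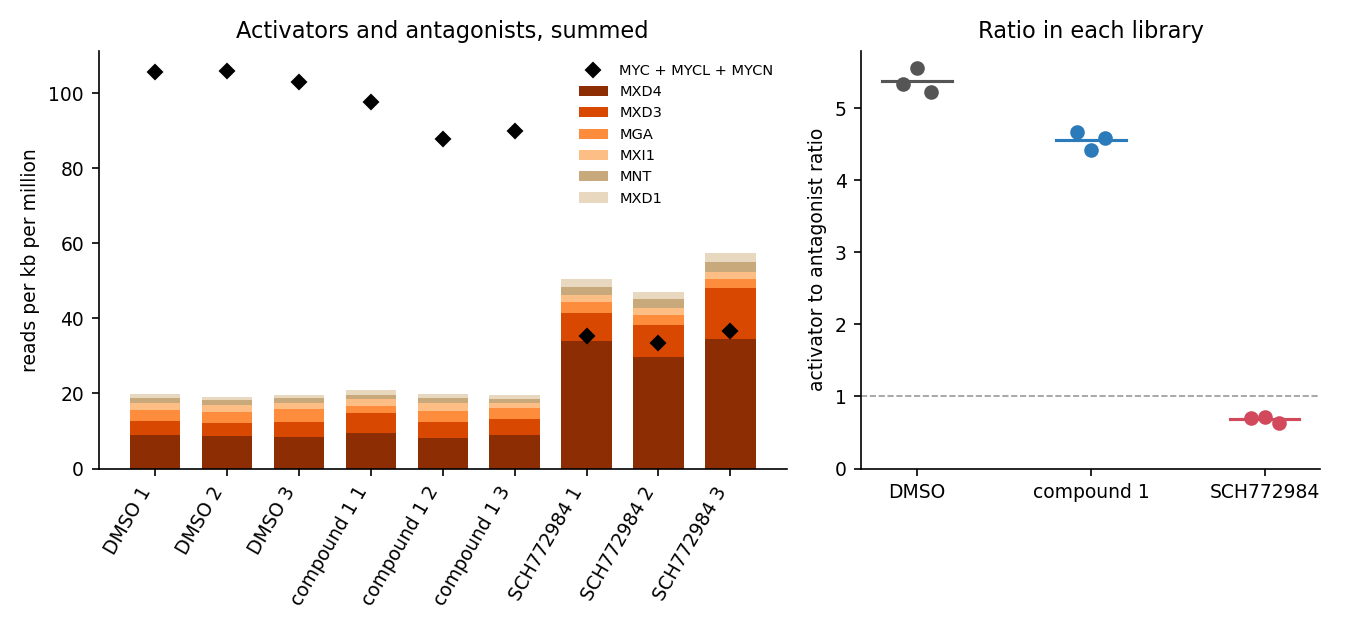
Left, summed RPKM of the activators (black diamonds) and of the antagonists (stacked bars, one color per gene) in each library, and right, the activator to antagonist ratio per library with group means as lines and a dashed line at 1. The diamonds stand far above the bars with DMSO and compound 1, at ratios of 4.42 to 5.55, and inside the bars with SCH772984, at ratios of 0.638 to 0.710.

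Compound 1 was tested over 12849 genes, of which 0.49% were called higher and 0.374% lower. Of the 9 tested members, 0 were called by edgeR. At an unadjusted p under 0.05, which 7.35% of genes met as higher and 7.69% as lower, MYC passed below DMSO and MXD3 above it. DESeq2 likewise called 0 members after adjustment. Over all genes, edgeR called 63 higher and 48 lower, and with one library left out these counts ranged from 5 and 3 (without DMSO replicate 2) to 453 and 798 (without compound 1 replicate 1).

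MYC was not called with compound 1 (log2 fold change -0.18, SE 0.065, unadjusted p = 0.0151, adjusted p = 0.204), and all 3 libraries lay below DMSO. Without compound 1 replicate 1 the difference was -0.23 with an adjusted p of 0.00331, and over all alternatives the adjusted p ranged from 0.00331 to 0.566. MXD3 was at 0.29 (SE 0.12, unadjusted p = 0.0351, adjusted p = 0.285), with all 3 compound 1 libraries above DMSO, and was at 0.17 without replicate 1. MXD1 was also above DMSO in 3 of 3 libraries, at 0.22 (95% interval -0.13 to 0.58, adjusted p = 0.61). MNT was below DMSO in 3 of 3 libraries, at -0.13 (95% interval -0.41 to 0.15, adjusted p = 0.712).

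The remaining members overlapped between compound 1 and DMSO. MXD4, the member that rose most with SCH772984, was at 0.06 with compound 1 (95% interval -0.11 to 0.22), and MAX was at 0.09 (95% interval -0.10 to 0.28). MXI1, with 74, 98 and 61 counts, was at 0.01 (95% interval -0.37 to 0.39), and MYCL was at 0.21 (95% interval -0.39 to 0.81). MGA had 333, 497 and 463 counts with compound 1 and 2.01, 2.96 and 2.72 RPKM, so replicate 1 was the low library. Its difference was -0.22 (adjusted p = 0.421) and was -0.08 without that library.

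The inhibitors were then compared directly at their shared dose and time over 13863 genes, of which 33.7% were called higher with SCH772984 and 32.6% lower. The same 6 members were called as against DMSO. MXD4 was higher with SCH772984 by 1.90 on the log2 scale (SE 0.091, adjusted p = 3.3e-13), MXD3 by 1.10 (SE 0.19, adjusted p = 0.000111), MXD1 by 0.99 (SE 0.16, adjusted p = 1.73e-05) and MNT by 0.96 (SE 0.14, adjusted p = 4.3e-06). MYC was lower by 1.38 (log2 fold change -1.38, SE 0.083, adjusted p = 1.01e-11), and MAX was at -0.39 (SE 0.10, adjusted p = 0.00278). MXD3 was at 0.81 without SCH772984 replicate 3. MYCL (-0.42, 95% interval -0.96 to 0.12), MXI1 (0.09, 95% interval -0.28 to 0.45) and MGA (0.09, 95% interval -0.16 to 0.33) were not called.

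Genes that work with the network were followed in lists, given by how many were called and by their median. With SCH772984 against DMSO, 37.2% of all tested genes were called higher and 35.5% lower, with a median log2 fold change of 0.03, and the lists are to be read against these values. The SIN3 and NCoR corepressors, which MXD proteins and MNT use, had 3 of 20 genes higher and 8 lower with SCH772984, with a median log2 fold change of -0.15, so the share called lower was near that of all genes. ARID4A (0.57) and SUDS3 (0.38), both SIN3 complex subunits, were higher, and ING2 (-1.37) and BRMS1 (-0.89), also SIN3 complex subunits, were lower. SIN3A itself was at -0.32 (adjusted p = 0.000191) and its paralog SIN3B at 0.26 (adjusted p = 0.00112). With library size alone the counts were 5 higher and 5 lower, where 6242 of all 13834 tested genes were higher and 3911 lower.

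The partners of MGA in its polycomb complex had 8 of 10 genes lower and 1 higher with SCH772984, with a median of -0.75, where 35.5% of all genes were lower and the median of all was 0.03. TFDP1, the dimer partner of E2F6, was at -1.30, and WDR5, a chromatin adaptor that also binds MYC, was at -1.16. The ubiquitin ligase subunit RING1 was higher (0.51). MGA itself, as given above, was not called.

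Among 17 MYC cofactors, 11 were lower and 1 was higher, with a median of -0.45. With library size alone 9 were lower and 5 higher, where 3911 of all 13834 tested genes were lower and 6242 higher. CCNT1, the cyclin of the elongation kinase P-TEFb, was at -1.99, and RUVBL1, an ATPase of several MYC-associated remodelers, was at -1.16. ZBTB17 (also MIZ-1), through which MYC represses genes, was higher (0.29). Genes for MYC protein turnover had 2 of 17 tested genes higher and 8 lower, with a median of -0.10, where 37.2% of all genes were higher, 35.5% were lower and the median of all was 0.03. With library size alone, 6 were higher and 7 lower, to be read against the all-gene counts under that scaling given for the cofactors. The ubiquitin ligase genes TRIM32 (0.33) and HUWE1 (0.24) were higher, and the genes of the MYC-stabilizing proteins AURKA (-1.77) and CIP2A (-1.61) were lower. FBXW7, whose product marks phosphorylated MYC for degradation, was at -0.02 (adjusted p = 0.921).

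Genes that MYC is known to activate were mostly lower with SCH772984, at 36 of 41, with 3 higher and a median of -1.11. CDC25A, a cell cycle phosphatase, was at -2.63 (SE 0.11), and RRP9, a nucleolar factor of ribosomal RNA processing, was at -1.98 (SE 0.079). DNPH1 (0.42) and SHMT1 (0.17) were higher. CCND2, the third, had 0 counts in every DMSO library and 11 to 17 with SCH772984, which is at least 3.46-fold higher against a floor of 3 counts per library. The list's median with CCND2 at that bound was -1.11 as well. Genes that MYC is known to repress had 8 of 9 tested genes higher and 1 lower, with a median of 1.27. One of the higher genes, PDGFRB, a growth factor receptor gene, had 0 to 2 counts with DMSO and 64 to 99 with SCH772984. PDGFRB therefore passed the filter on low counts only through the SCH772984 libraries, and it is included in the 8 and in the median. Dropping any gene under 10 counts in a library gave 7 repressed genes higher and 0 lower, where 4424 of 11970 genes were higher. A median without PDGFRB was not computed. The differentiation-linked genes NDRG1 (1.65) and NDRG2 (1.32) were higher, as were the cyclin-dependent kinase inhibitors CDKN1A (1.72, at an average of 4.58 CPM) and CDKN1B (1.05), and GADD45A, a stress gene, was lower (-0.20).

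The parallel MondoA branch, in which MLX takes the place of MAX, had 3 of 4 tested genes lower and 1 higher, with a median of -0.39. MLX, the MAX-like partner, was at -1.03, and TXNIP, a glucose-sensing target of MondoA, was at -0.40. MLXIPL, which encodes the glucose sensor ChREBP, had 28 to 35 counts with DMSO and 181 to 362 with SCH772984 and was higher by 2.49 on the log2 scale (SE 0.19).

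Genes of these lists that were called lower with compound 1 included HCFC1, a MYC cofactor (-0.32, adjusted p = 0.0453), and CAD, the enzyme that opens pyrimidine synthesis and a classical MYC target (-0.33, adjusted p = 0.0247). HCFC1 was not called with library size alone. The medians with compound 1 were -0.05 for the genes MYC activates and -0.03 for those it represses, against 0.00 for all tested genes.

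**Figure D4:**
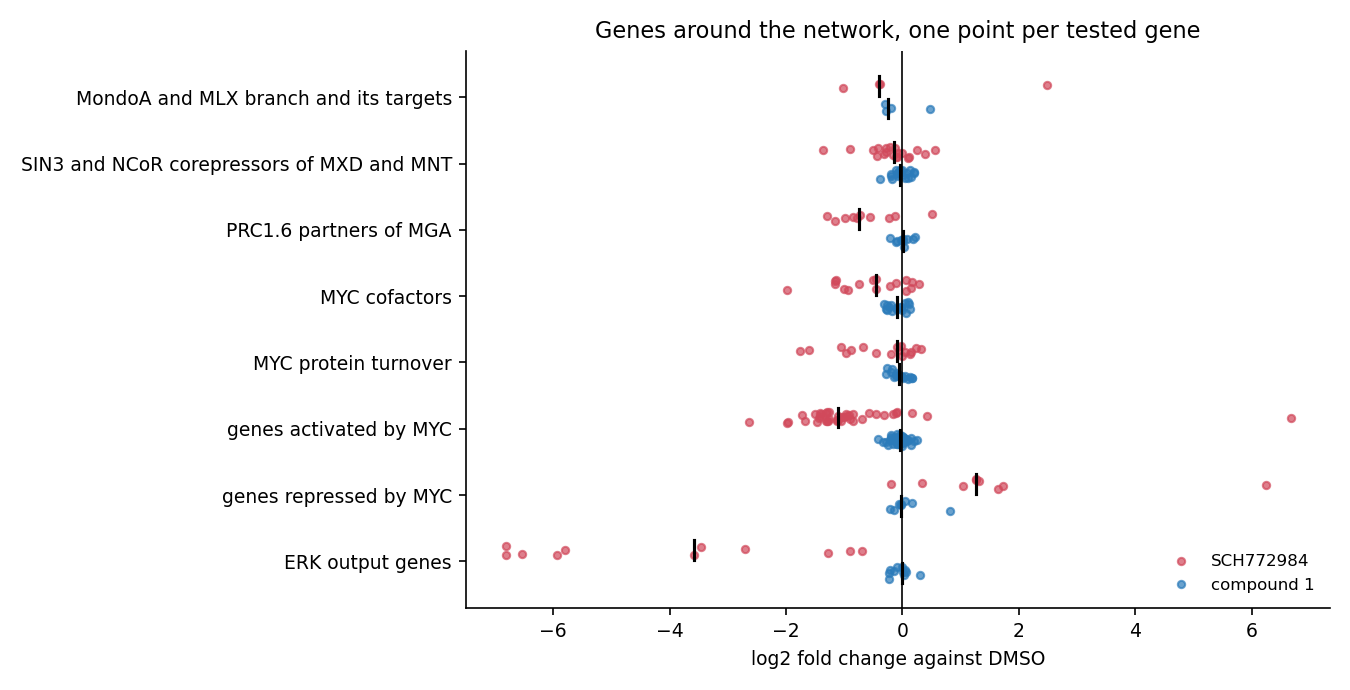
Log2 fold change against DMSO of each tested gene in 8 lists around the network, with SCH772984 and compound 1 as separate rows of points and a black bar at each list's median. With SCH772984 the genes MYC activates center on -1.11, those it represses on 1.27 and the ERK output genes on -3.58, while the compound 1 medians lie between -0.24 and 0.01.

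The genes most like MYC over the 9 libraries were found by the Euclidean distance between log2 CPM profiles, each centered on its mean, among 10473 genes. The 5 nearest were SEPT9, a septin (distance 0.117), COTL1, an actin-binding protein, TUBA1C, an alpha-tubulin, IRAK1, a kinase of Toll-like receptor signaling, and IFRD2 (0.181). All 5 were lower with SCH772984, with log2 fold changes from -1.48 for IFRD2 to -1.62 for SEPT9. The nearest to MXD4 were COL6A2, a collagen VI chain (distance 0.141), DDR1, a collagen receptor kinase, MKNK2, a kinase that phosphorylates EIF4E, MVP, the major vault protein, and COL6A1 (0.235). MKNK2 rose from 251 ± 13.9 CPM with DMSO to 1039 ± 77.1 CPM with SCH772984, and DDR1 from 76.6 ± 2.56 to 304 ± 19.8 CPM (SD, n = 3). Likeness over 9 libraries in 3 conditions is largely likeness in the SCH772984 response, and with Pearson correlation in place of distance 0 of the 5 genes nearest to MYC and 3 of the 5 nearest to MXD4 were shared.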

How the data were processed

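RNA of 9 MIA PaCa-2 libraries was sequenced by Novogene, and the authors deposited raw counts per gene, whole numbers without normalization. The submitters' processing notes name HISAT2 2.0.5, featureCounts 1.5.0-p3 and hg38, and the strand setting is not given in the sources used here. All 58735 genes matched GENCODE 29 (Ensembl 94) by identifier, name and coordinates. Libraries were grouped by their deposited treatment labels. The labels do not say whether replicates were separate cultures, so p-values measure the spread between these samples only.

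Each pair of conditions was fitted on its own with edgeR 4.0.16 in R 4.3.3 (robust quasi-likelihood test, TMM normalization, filterByExpr with a minimum count of 10 and a minimum total of 15). P-values were adjusted by Benjamini-Hochberg over all genes tested, and genes were called at an adjusted p under 0.05. "Higher" and "lower" of a single gene mean such a call. CPM and RPKM used TMM-scaled totals over the 9 libraries and the gene lengths of the table. Of the 10 members, 9 passed the filter. Intervals are 95% by a normal approximation from the SE and cover the spread between libraries. They are narrower than intervals using the degrees of freedom of the quasi-likelihood test would be. The limit for 0 counts (3 counts of the total) covers counting error only. Library totals of 9464432 to 13887859 counts left MYCL, at 16 to 34 counts, imprecise. The fits of each inhibitor against DMSO were checked on simulated data, with far fewer changed genes than were called with SCH772984. The direct comparison, ratios, lists, motif search and profile distances were not checked in this way.

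The members and lists were chosen with earlier results of these data known. Named genes were all members, the genes overlapping them, the 5 nearest in profile to MYC and to MXD4, and from each list up to 2 genes with the largest rise and 2 with the largest fall with SCH772984 at an adjusted p under 0.05 and at least 5 CPM, plus list genes called with compound 1, among which some results are not reported here. SIN3A, SIN3B, FBXW7, CDKN1A (under 5 CPM), CDKN1B, PDGFRB, CCND2, DUSP6 and the cell type markers named were picked after their values were seen. Alternatives were other scalings (library size, RLE factors), other filters, all libraries in one fit, a replicate block, DESeq2 1.42.0, protein-coding genes, an unadjusted p, a 2-fold threshold, leaving out each library and, for the ratio, other lengths and members. Leaving out mitochondrially encoded genes and the coding transcript length were added after the data were seen.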

Additional observations from a re-analysis of the deposited data

How the results depend on the processing

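Depth limits MYCL and MYCN, and the gene length limits the size of the activator to antagonist ratio. Its mean of 5.37 with DMSO, 4.56 with compound 1 and 0.682 with SCH772984 became 1.98, 1.76 and 0.286 without division by length and 4.02, 3.36 and 0.490 with coding transcript lengths, and was 6.36 and 5.23 for the first 2 groups without MGA. With Pearson correlation, 0 of the 5 genes nearest to MYC and 3 of the 5 nearest to MXD4 were shared. The calls of MYC, MXD1, MXD3 and MXD4 with SCH772984 against DMSO kept their side of the threshold under all alternatives run.

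Against DMSO, scaling by library size alone left 1 member lower with SCH772984 (MAX at -0.13, adjusted p = 0.158) and turned MGA to 0.029, and the 2-fold threshold left 1 lower. In the direct comparison the 2-fold threshold left 2 higher and 1 lower. With compound 1, an unadjusted p gave 1 member higher and 1 lower. Leaving out one library gave 0 to 1 members lower with compound 1, the 1 being MYC without compound 1 replicate 1.

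Changes of sign occurred only in MYCL, MXI1 and MGA, none of them called. With SCH772984 against DMSO, MYCL spanned -0.52 to 0.00087 and MXI1 -0.023 to 0.12 when one library was left out. With compound 1, MYCL spanned -0.069 to 0.45 and MXI1 -0.19 to 0.16, and MXI1 was at -0.0016 without a filter. In the direct comparison MXI1 spanned -0.092 to 0.27 and MGA -0.059 to 0.19. The cause was not tested.

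For the lists with SCH772984 against DMSO, library size alone gave 5 corepressors higher and 5 lower, 5 cofactors higher, 6 turnover genes higher and 0 repressed genes lower. Over all genes that scaling called 6242 higher and 3911 lower, in place of 5150 and 4916. A minimum of 10 counts in every library dropped genes below it in any library and left 11970 tested, with 4424 called higher and 4295 lower. It gave 3 cofactors higher, 0 repressed genes lower and 7 ERK output genes lower, and the cause was not tested further. With compound 1, library size alone gave 0 cofactors lower, and without a filter 1 gene was lower in the MondoA, turnover and neighbour lists each and 1 activated gene was higher. In the direct comparison, library size alone gave 6 turnover genes higher, no filter gave 1 activated gene higher, and 10 counts in every library gave 2 neighbour genes and 7 ERK output genes lower. Over all genes these settings called 5526 higher, 4962 higher and 3957 lower, where the main fit called 4674 higher and 4519 lower.

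Correlations of deviations across genes between same-numbered libraries ran from -0.20 to 0.30, so the numbers were not taken to pair samples. Between compound 1 and DMSO they were 0.26, -6.7e-05 and 0.10, against -0.20 to 0.16 for different numbers. Whether libraries of one number shared a batch was not tested. With the replicate block, MYC was at -1.57 with SCH772984 and -0.18 with compound 1 (adjusted p = 0.149), MXI1 was at -0.0017 with compound 1, and no member's call changed, while the calls over all genes with compound 1 went from 63 higher and 48 lower to 193 and 219. Over all genes with compound 1, DESeq2 gave 117 higher and 122 lower, no filter 189 and 228, all libraries in one fit 91 and 97, protein-coding genes only 38 and 32, library size alone 85 and 25, and leaving out compound 1 replicate 1 gave 453 and 798. Leaving out any other library lowered these counts, to 27 and 24 without compound 1 replicate 2, 15 and 6 without compound 1 replicate 3, and 6 and 4, 5 and 3, and 12 and 5 without DMSO replicates 1, 2 and 3.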

Other observations

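Genes beside the activators on their chromosomes were read as a list of 12, of which 9 were in the table and 4 were tested with SCH772984 against DMSO. MFSD2A, a lipid transporter gene beside MYCL, had 237 to 268 counts with DMSO and 43 to 52 with SCH772984, a log2 fold change of -2.88 (SE 0.15, adjusted p = 3.49e-21), while MYCL itself overlapped between these groups. PVT1, the long noncoding RNA beside MYC, had 113 to 125 counts with DMSO and 96 to 138 with SCH772984 and was lower by a smaller value than MYC (log2 fold change -0.51, SE 0.15, adjusted p = 0.0028). With compound 1, 0 of 5 tested neighbours were called, where 0.49% of all genes were called higher and 0.374% lower, with MFSD2A at -0.47 (adjusted p = 0.0566) and PVT1 at 0.20.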
